A study of Homo sapiens with 27 samples.

Results

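The genes of the human Mediator complex were examined across the epitranscriptome of HepAD38 cells, meaning the set of chemical modifications carried by their RNA. The members were the RefSeq genes named as a MED subunit, and CCNC, CDK8 and CDK19, which gave 33 of 20056 protein-coding genes. An antibody peak was a member's where it named that gene alone. Pseudouridine (Psi) peaks, which carry no gene name, were given to a member where the summit lay inside the gene's span on hg38. Of the 33 genes, 29 had a peak in at least 1 of 5 lists, and MED7, MED16, MED18 and MED22 had none. Members held 78 of 29708 peaks for N1-methyladenosine (m1A), 55 of 21827 for 5-methylcytosine (m5C), 43 of 16942 for N7-methylguanosine (m7G), 16 of 8463 for N4-acetylcytidine (ac4C) and 31 of 16672 for Psi.

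Mediator is the coactivator that carries signals from DNA-bound transcription factors to RNA polymerase II at promoters. Its head and middle modules contact the polymerase, its tail binds many activators, MED14 is the backbone that joins these modules, and a separable kinase module of CDK8 or CDK19, cyclin C, MED12 or MED12L, and MED13 or MED13L docks on the core and can block polymerase binding. In liver cells the complex serves nuclear receptors through MED1 and sterol regulation through MED15. The marks differ in kind: m7G also forms the cap that begins every mature mRNA, while m1A, m5C, ac4C and Psi are modified bases within RNA.

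HepAD38 is a wild-type human liver cancer line, derived from HepG2, that carries a hepatitis B virus genome under a tetracycline-controlled promoter. No other line or treatment entered the comparison. The 27 libraries fell into 9 groups of 3: RNA pulled down (IP) with an antibody to m1A, m5C, m7G or ac4C, the matching input RNA of each, and 1 Psi group. The sources used here do not say whether the libraries within a group were made from different cultures, or whether the viral genome was switched on. Each deposited list pools the libraries and gives a peak 1 number for the IP and 1 for the input, so no value below has a replicate error and no test across replicates was possible.

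The value reported for a gene is its IP to input ratio, the summed RPM (reads scaled to library depth) of all its listed peaks in the IP divided by the same sum in the input. Its 95% interval is exact (Clopper-Pearson) and covers counting error only. A gene was called higher at a ratio of at least 2 with its interval above 1, and lower at a ratio of at most 0.5 with its interval below 1. Every listed peak carried a positive enrichment in the authors' deposited table, so a ratio under 1 describes RPM in a place the authors listed as enriched. The largest p-value in the authors' deposited tables was 9.99971e-11. For example, the m5C peak of CDK8 at chr13:26254154-26254228 had a log2 enrichment of 1.60 in the authors' deposited table, while its RPM ratio was 0.212 (0.176 to 0.254).

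The shallowest pool was the ac4C IP, with 17135274 reads, and the deepest the m1A input, with 364905848. Of 8 hepatocyte markers fixed for this cell type, 7 were listed for m1A, m5C and m7G, among them albumin (ALB) and apolipoprotein B (APOB), and 0 of 8 for ac4C. The ac4C list instead named 5 of 5 fibroblast markers (COL1A1, COL1A2, COL3A1, DCN and LUM), with a summed 275 RPM in the IP against 0.873 RPM in the input, while the other antibody lists named 0 of 5. No endothelial marker was listed. Of 3 immune markers CD68 was in all 4 antibody lists, CD14 in that of m1A, and PTPRC in none. The ac4C values of the Mediator genes below come from that same IP, and the part of those other RNAs in them was not tested.

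In each of the 5 lists the share of the 33 Mediator genes with a peak was above that of all protein-coding genes. For m5C 24 of 33 members were listed (72.7%, against 39.3% of all protein-coding genes), for m1A 21 (63.6% against 41.2%) and for m7G 20 (60.6% against 35.9%). Psi peaks lay in 15 members (45.5% against 32.3%) and ac4C peaks in 11 (33.3% against 22.1%). Over the 29 members and the 11735 protein-coding genes with a peak in some list, the shares lay closer together. They were 82.8% against 67.2% for m5C, 69.0% against 61.3% for m7G, 72.4% against 70.4% for m1A, 37.9% against 37.8% for ac4C and 51.7% against 55.2% for Psi. On that denominator the members' share was near that of all genes for m1A and ac4C and below it for Psi. CDK19, MED1, MED13 and MED28 were in all 5 lists, which was 12.1% of members against 8.67% of protein-coding genes. MED10, MED13L, MED15, MED17, MED23, MED4 and MED6 were in 4, while MED20 and MED27 were in 1, that of m7G. Without the ac4C list, 7 members were in all 4 remaining lists (21.2% against 16.9%): the former 4 with MED23, MED4 and MED6.

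Input levels under the members' peaks, per kilobase of peak, lay near those of all listed genes. Their medians were 21.7 RPM per kb for m1A (17.0 over all listed genes), 17.8 for m5C (23.5), 35.7 for m7G (42.6) and 5.28 for ac4C (4.92). The Psi-listed members spanned a median of 46979 bases and the other members 16004, and the part of gene length in the Psi share was not tested.

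Most members listed for m7G had an m7G peak at the annotated start of the gene. Of 20 members listed for m7G, 18 had a peak whose first base lay within 50 bases of that start (90%), against 56.3% of all listed protein-coding genes. The exceptions were CCNC, whose first m7G peak began 152 bases in, and CDK19, whose first peak began 622 bases in. By the planned measure, a midpoint within 500 bases of the start, the share was 14 of 43 member m7G peaks (32.6%, 19.1 to 48.5). Over all m7G peaks of protein-coding genes it was 18.8%. By first base, 12 members had a peak within 10 bases (39.7% of all listed genes) and 19 within 200 bases (64.8%). The sequences below, from RefSeq on GRCh38.p14, show where that edge fell in 5 members: CDK8, the kinase, MED15, the tail subunit bound by sterol regulatory factors, and MED10, MED11 and MED31, small core subunits with high m7G ratios. Each runs 5′ to 3′ on the gene's own strand, 30 bases on either side of the annotated start, and capitals mark the bases inside the m7G peak.
CDK8: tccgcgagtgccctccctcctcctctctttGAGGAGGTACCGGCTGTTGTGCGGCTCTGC
MED10: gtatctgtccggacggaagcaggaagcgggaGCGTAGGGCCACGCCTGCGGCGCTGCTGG
MED11: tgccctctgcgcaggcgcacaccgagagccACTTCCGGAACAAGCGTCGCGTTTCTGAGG
MED15: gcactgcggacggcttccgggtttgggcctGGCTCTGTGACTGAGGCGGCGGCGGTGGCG
MED31: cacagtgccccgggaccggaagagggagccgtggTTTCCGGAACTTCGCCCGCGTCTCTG

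These windows are chr13:26254099-26254158 (plus strand) for CDK8, chr5:6378518-6378577 (minus) for MED10, chr17:4731398-4731457 (plus) for MED11, chr22:20507580-20507639 (plus) for MED15 and chr17:6651576-6651635 (minus) for MED31. The peak began on the first annotated base in CDK8, MED11 and MED15, 1 base in for MED10 and 4 bases in for MED31. The ratio of that first peak was 5.47 (5.20 to 5.76) in CDK8, from 9820 IP and 1767 input reads. It was 6.51 (6.29 to 6.75) in MED10, from 23263 and 3518 reads. In MED15 it was 5.58 (5.31 to 5.86), from 10726 and 1894 reads, whereas the last m7G peak of that gene, 4423 bases before its end, had a ratio of 0.827 (0.770 to 0.887). The smallest counts were those of MED31, 585 IP and 79 input reads, with a ratio of 7.29 (5.76 to 9.35).

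Over all 18 start peaks the members' ratios ran from 1.76 to 11.7 with a median of 4.10, and over the 25 m7G peaks elsewhere in the members from 0.597 to 7.30 with a median of 1.19. Over all listed protein-coding genes the same medians were 3.64 at the start and 1.12 elsewhere. At each place the members' median lay near that of all genes, while a larger share of them had a peak at the start. In the other lists the shares were 5 of 21 for m1A (23.8% against 23.1%), 2 of 24 for m5C (8.33% against 14.6%) and 2 of 11 for ac4C (18.2% against 12.2%). The letters CCGGAA, or TTCCGG on the other strand, stand in the MED11, MED15 and MED31 windows. In MED15 they lie before the annotated start, outside the m7G peak. They are absent from the CDK8 and MED10 windows, and from those of MED1, MED19, MED24 and MED27, which are not shown. These letters were found in 8 of 25 members with a RefSeq window (32%) and in 9.31% of 15843 protein-coding genes in the same 60 bases. The 8 were MED11, MED12, MED15, MED18, MED20, MED29, MED31 and MED7. Of these, MED12, MED18, MED29 and MED7 were not listed for m7G. Over the full 300 bases around the start the shares were 36% against 22.9%. The motif was chosen after these sequences were seen, and the match is a description only. GC content of the first 50 bases had a median of 64% both in the members and in all genes.

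By gene, the m7G ratio lay above 1 in 18 of 20 members, as it did in 85.1% of all genes in the list. Of 20 members 12 were called higher (40.5% of all genes in the list were) and 0 lower (0.013%), and the median gene ratio was 3.23 against 1.60 over all genes. MED31, MED10 and MED8 had the highest values. MED8, a head subunit, stood at 5.73 (5.51 to 5.98), although its peaks were 14.9-fold apart: 11.7 at the start, 7.30 at the next place and 0.783 at the third. In the 12 members with more than 1 m7G peak, the peaks of a gene were a median of 3.37-fold apart, against 2.77 over all such genes. MED23, MED11, MED20, MED27, MED21, MED15, CDK19, CDK8 and MED24 were also called higher. The lowest were MED6, a head subunit, at 0.825 (0.796 to 0.855), and MED13, at 0.841 (0.808 to 0.875).

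MED6 and MED13 still had a start peak above 1. That of MED6 was 3.43 (3.11 to 3.78), and that of MED13 was 2.08 (1.53 to 2.84) from 135 IP and 64 input reads. The other m7G peaks of MED13 held 956 and 3376 IP reads and had ratios of 0.660 and 0.888. MED1, with 5 m7G peaks, had 2.56 (2.32 to 2.82) at its start and a gene ratio of 1.07 (1.05 to 1.08).

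**Figure D1:**
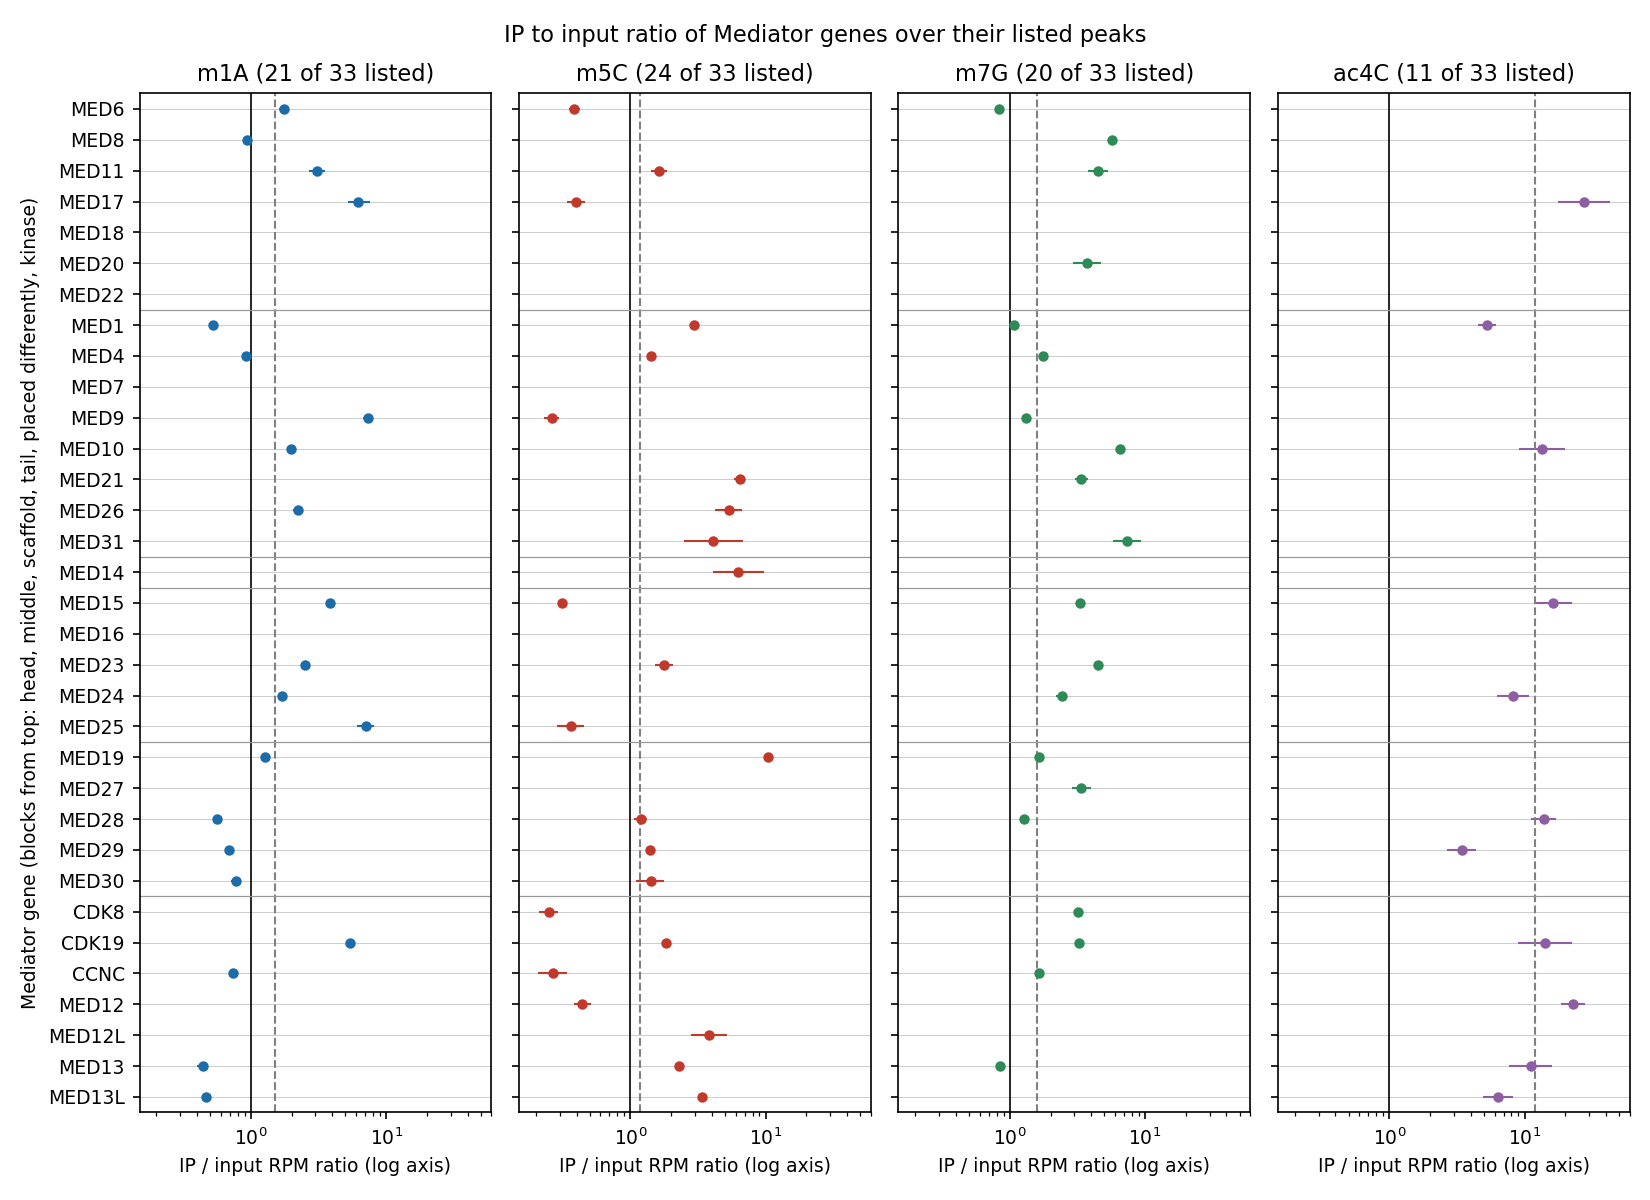
IP to input RPM ratio of each Mediator gene over its listed peaks (horizontal log axis), in panels for m1A, m5C, m7G and ac4C, with genes in blocks by module; points are pooled ratios, bars are 95% exact counting intervals, the solid line is 1 and the dashed line is the median of all genes in that list. The m7G points lie at 0.825 or above, the ac4C points at 3.44 or above, and the m5C points run from 0.249 to 10.5.

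In the m5C list the members spread widely to both sides. Of 24 members 9 were called higher (34.1% of all genes in the list) and 8 lower (23.3%), with a median of 1.53 against 1.17 over all genes. MED19, MED21 and MED14 were the highest and CDK8 and MED9 the lowest. MED19, a small core subunit, had 19704 IP and 3839 input reads and a ratio of 10.5 (10.1 to 10.8). Its largest m5C peaks, at chr11:57704284-57704508 and chr11:57704634-57705123, had ratios of 12.9 and 10.2. MED21, which forms the hinge of the middle module with MED7, had 6.44 (5.88 to 7.05). Of its 3 m5C peaks, the one at chr12:27030369-27030518 stood at 21.2 (17.4 to 26.0).

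MED14, the scaffold, was listed only for m5C and Psi. Its single m5C peak, at chrX:40651730-40651779, had 92 IP and 30 input reads and a ratio of 6.25 (4.10 to 9.78). At the other end CDK8 had 188 IP and 1541 input reads and a ratio of 0.249 (0.213 to 0.289). MED9, a middle subunit, had 255 IP and 1988 input reads and a ratio of 0.261 (0.229 to 0.298). CCNC, which encodes cyclin C, the partner of both kinases, had 0.268 (0.209 to 0.340). MED15, MED25, MED6, MED17 and MED12 were called lower as well, and MED26, MED31, MED12L, MED13L, MED1 and MED13 higher. The single m5C peak of MED31, of 52 IP and 26 input reads, overlaps TXNDC17 on the opposite strand, and m5C and m1A peaks of MED4 overlap the antisense gene MED4-AS1.

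In some members the m5C ratio differed between peaks toward the start and toward the end of the gene. Such spread was no larger in the members than elsewhere. In the 15 members with more than 1 m5C peak, the peaks of a gene were a median of 2.03-fold apart, against 3.96 over all such genes. Peaks on both sides of 1 were found in 4 of these 15 members, against 52.6% of all such genes. In MED13, which tethers the kinase module to the core, the peak at chr17:61944380-61944529, near the end of the gene, had 879 IP and 43 input reads and a ratio of 41.7 (30.7 to 58.0). The m5C peak nearest the MED13 start had 187 IP and 648 input reads and a ratio of 0.588 (0.497 to 0.693), 70.8-fold less. In CDK19 the peak nearest the end stood at 16.3 (13.9 to 19.2) and that nearest the start at 0.772 (0.715 to 0.834). In CDK8 both were below 1, at 0.416 (0.307 to 0.557) toward the end and 0.212 at the start. In MED4 the intervals overlapped, at 1.37 (1.32 to 1.43) for the peak that began 2 bases from the start and 1.19 (0.946 to 1.48) for the one nearest the end. The 3 member peaks with a midpoint within 500 bases of the start, in CCNC, CDK8 and MED17, all had an m5C ratio under 1. Their median was 0.268. The 5 peaks with a midpoint within 500 bases of the end had a median of 1.63. Of these 3 were above 1, and the peaks of MED9 were below 1. The 47 peaks away from both ends had a median of 1.502. They include the high peaks of MED13 and CDK19 above, whose midpoints lay 1849.5 and 849.5 bases before the end. By first base within 50 bases of the start, the members had 2 m5C peaks, 0.212 in CDK8 and 1.37 in MED4, and a median of 1.502 over their other 53. Over all listed protein-coding genes the medians by that measure were 0.563 at the start and 1.02 elsewhere.

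MED1, the subunit that nuclear receptors bind, had the most listed peaks of any member, 30 over the 4 antibody lists. Its m5C peak of 875 bases at chr17:39407310-39408184 held 35091 IP and 16406 input reads, with a ratio of 4.36 (4.28 to 4.44). The next m5C peak toward the gene start, at chr17:39409185-39409509, stood at 0.622 (0.598 to 0.648). Over the gene the m5C ratio was 2.95 (2.90 to 2.99), the m1A ratio 0.520 (0.512 to 0.529) and the ac4C ratio 5.31 (4.54 to 6.20). Of its 14 m1A peaks, the one that began 12 bases from the start had the highest ratio, 3.70 (3.33 to 4.12).

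**Figure D2:**
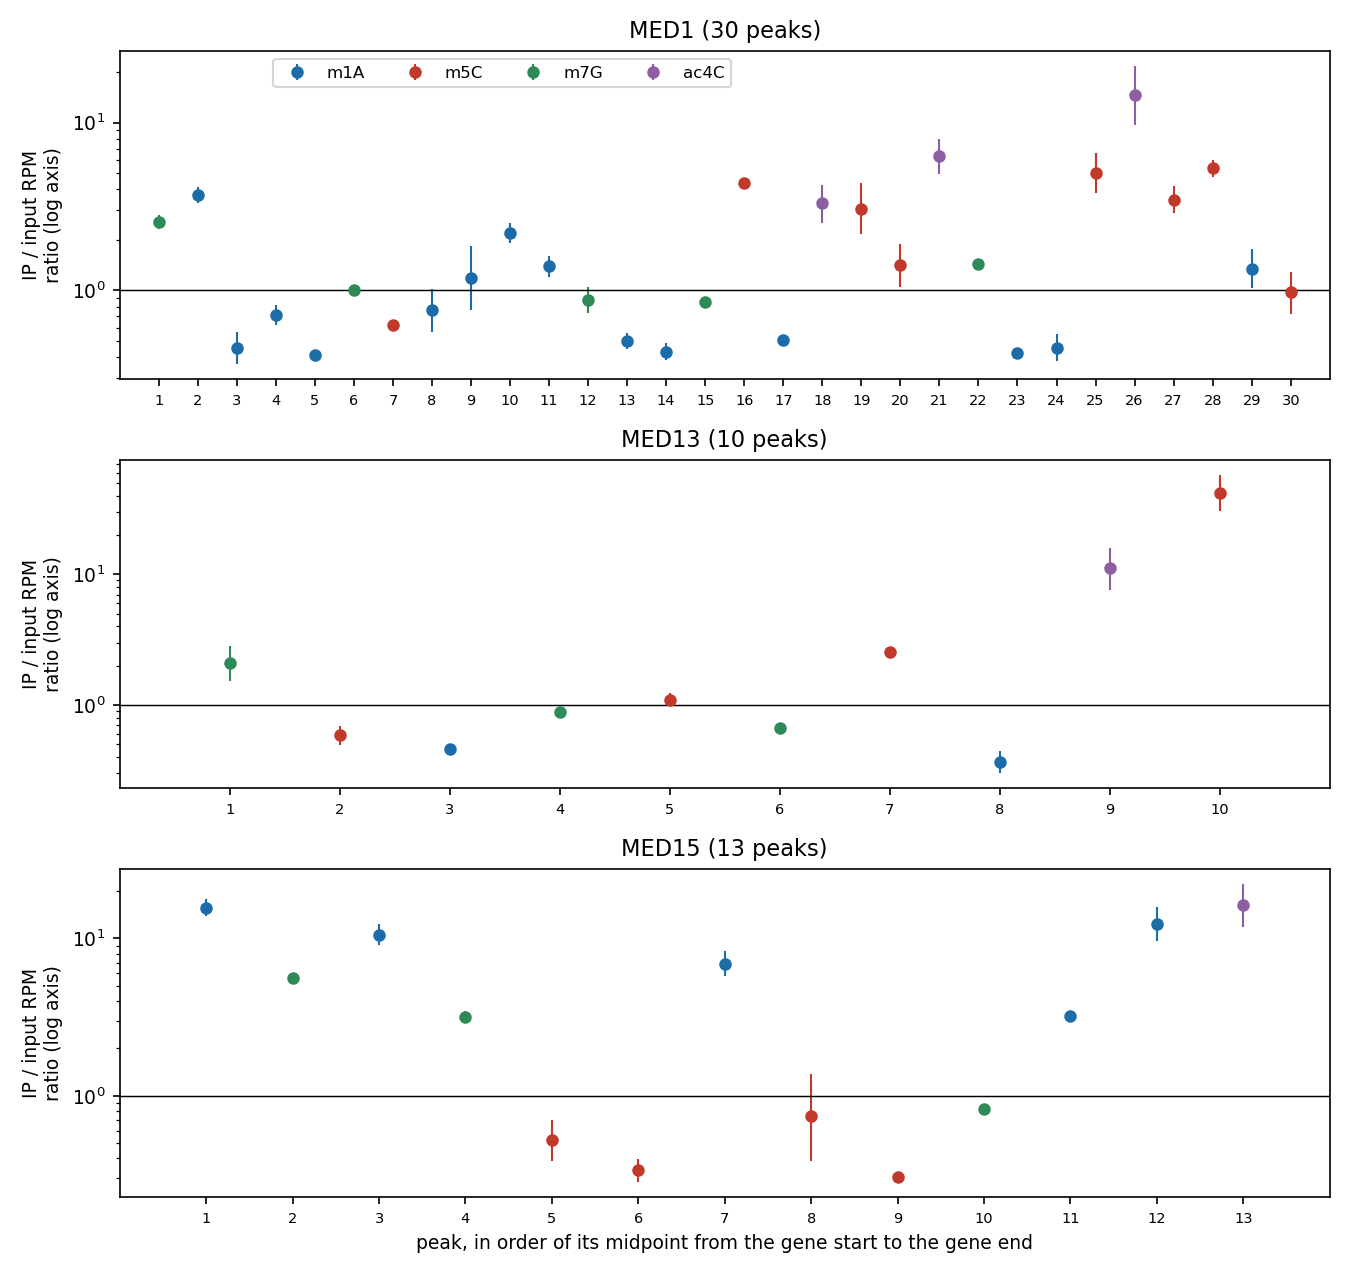
IP to input RPM ratio (vertical log axis) of every listed antibody peak of MED1, MED13 and MED15, in order from the gene start to the gene end (horizontal axis, peak rank and not distance); colours mark the list and bars are 95% exact counting intervals. In MED13 the m5C points run from 0.588 near the start to 41.7 near the end, and in MED15 the m1A points lie between 3.21 and 15.7 while the m5C points lie between 0.303 and 0.746.

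In the m1A list 8 of 21 members were called higher (40.3% of all genes in the list) and 2 lower (7.87%), and the median was 1.69 against 1.52. The highest were MED9, MED25 and MED17, and the lowest MED13 and MED13L. MED9 had 3693 IP and 655 input reads and a ratio of 7.33 (6.74 to 7.98). MED25, the tail subunit known as the target of the viral activator VP16, had 1233 and 228 reads and a ratio of 7.03 (6.10 to 8.13). MED17, the central head subunit, had 662 and 138 reads in its single m1A peak and a ratio of 6.24 (5.18 to 7.55). CDK19, MED15, MED11, MED23 and MED26 were the other members called higher. MED13 had 709 IP and 2101 input reads and a ratio of 0.439 (0.402 to 0.478). MED13L stood at 0.465 (0.438 to 0.494), and most of its reads came from 1 peak of 1250 IP and 3982 input reads, while its other 3 m1A peaks had ratios above 1.

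Some members were high for m1A and low for m5C, or the reverse. Of 18 members in both lists, 6 were called higher in one IP and lower in the other, which was 33.3% against 17.7% of the 6996 genes in both lists. MED15, MED17, MED25 and MED9 were higher for m1A and lower for m5C, and MED13 and MED13L were the reverse. Each ratio was taken over the peaks of its own list, which need not lie at the same place. In MED25 and MED9 no m1A peak overlapped an m5C peak. The rank correlation over the 18 genes was -0.42 and over all 6996 genes -0.28, as a description over genes that share the same pools of libraries. By side of 1 alone, 12 of 18 members lay on opposite sides, against 60.1% of all genes.

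**Figure D3:**
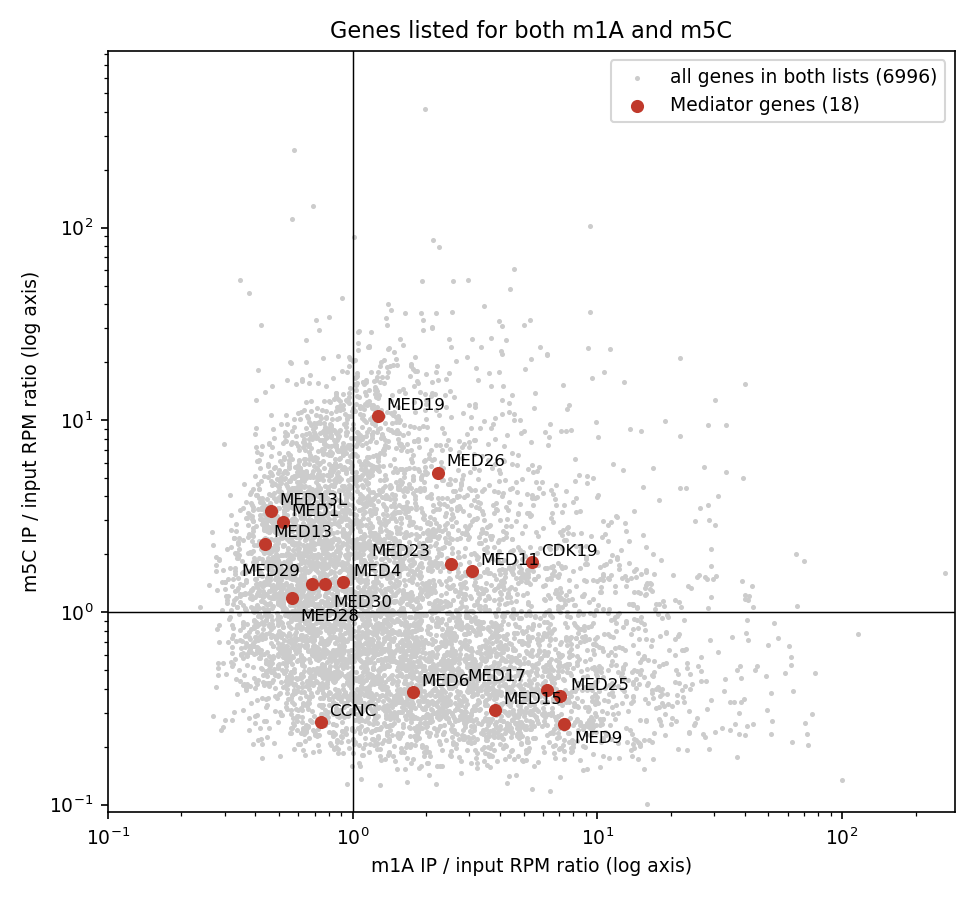
IP to input RPM ratio for m1A (horizontal log axis) against that for m5C (vertical log axis), for 18 Mediator genes (red, named) and all 6996 genes in both lists (grey); lines mark 1. MED9, MED25, MED17 and MED15 lie at the lower right and MED13, MED13L and MED1 at the upper left.

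The m1A input of MED15 was low beside the m7G input at the same places. For 5 member peaks the m1A and m7G lists gave identical start and end positions, so that the inputs of both experiments can be read at the same place. At the first MED15 peak, chr22:20507610-20508059, the m1A input held 0.726 RPM and the m7G input 7.30 RPM, 10.1-fold apart. The m1A IP there held 11.4 RPM, which was a ratio of 15.7 (13.8 to 17.8) against its own input and 1.56 (1.47 to 1.65) against the m7G input. At the next MED15 place, which starts at 20508435, the inputs were 5.22-fold apart and the ratio went from 10.6 to 2.03. At the CDK19 place the inputs were 1.82-fold apart, and the m1A ratio went from 2.04 (1.80 to 2.31) to 1.12 (0.999 to 1.26). The m7G ratios moved the other way when set against the m1A input, from 5.58 to 56.1 and from 3.14 to 16.4 at the MED15 places and from 3.23 to 5.89 at that of CDK19. In MED6 and MED8 the m7G input was 0.868 and 0.940 times the m1A input. Over all 802 places that both lists share, the inputs were a median of 1.88-fold apart. The m1A input there was a median of 0.627 times the m7G input, so a lower m1A input was not particular to MED15.

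In the ac4C list 11 of 11 members were called higher, as were 99.7% of all genes in it, with 0% lower. The median member ratio was 13.5 against 12.02 over all genes. These values rest on few reads, 36 to 210 per gene in the IP. MED17 had 52 IP and 37 input reads and a ratio of 27.3 (17.6 to 42.9). MED12, which activates the kinase, had 210 and 179 reads and a ratio of 22.8 (18.6 to 28.01). MED15 stood at 16.2 (11.8 to 22.3), in a single peak 73.5 bases before the end of the gene, measured from the peak's midpoint. The lowest were MED29 at 3.44 (2.69 to 4.34) and MED1. CDK19, MED28, MED10, MED13, MED24 and MED13L lay between. MED28, a subunit found in animals, had an ac4C peak that began on its first annotated base, with a ratio of 13.9 (11.2 to 17.1). At the same start its m7G peak stood at 2.63 (2.33 to 2.98). Over its listed peaks MED28 had ratios of 0.565 (0.547 to 0.583) for m1A, 1.19 (1.06 to 1.34) for m5C and 1.27 (1.18 to 1.36) for m7G.

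The kinase module holds 3 pairs of paralogs, alternative subunits that replace each other in the complex. CDK19 was in all 5 lists, while CDK8 was in those of m5C and m7G only. Their m7G ratios were 3.27 (3.14 to 3.41) for CDK19 and 3.19 (3.07 to 3.30) for CDK8, with overlapping intervals. Their m5C ratios lay on opposite sides of 1, at 1.82 (1.72 to 1.93) for CDK19 and 0.249 for CDK8. By the single peak of highest authors' enrichment both lay below 1, at 0.772 for CDK19 and 0.212 for CDK8. CDK19 had an m1A ratio of 5.43 (5.12 to 5.77) and an ac4C ratio of 14.3 (9.03 to 22.4).

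MED12 and MED12L shared only the m5C list. MED12 had a ratio of 0.442 (0.384 to 0.508) there from 248 IP and 1143 input reads, and MED12L one of 3.81 (2.82 to 5.18) from 129 and 69 reads. MED13 and MED13L shared 4 lists. For m1A they had 0.439 and 0.465, but 0.365 and 1.71 by the single peak of highest authors' enrichment. For m5C they had 2.27 (2.16 to 2.39) and 3.37 (3.14 to 3.62), both above 1. For ac4C they had 11.1 (7.63 to 16.0) and 6.38 (4.94 to 8.17), in a list where 100% of genes lay above 1. MED13 alone was in the m7G list. CCNC had 0.741 (0.703 to 0.781) for m1A and 1.63 (1.59 to 1.68) for m7G. In its m7G list the peak toward the start stood at 3.26 (3.13 to 3.40) and the one toward the end at 0.646 (0.618 to 0.675).

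By module, the tail genes listed for m1A (MED15, MED23, MED24 and MED25) all had ratios above 1, as did 65.5% of all genes in the list. Their median was 3.16, and 3 of 4 were called higher (40.3% of all genes). In MED15 the m1A input was low beside the m7G input at the shared places, as given above. The kinase genes listed for m1A had a median of 0.603, with CDK19 called higher and MED13 and MED13L lower (7.87% of all genes). For m5C, 4 of 6 middle genes were called higher (MED21, MED26, MED31 and MED1) and 1 lower (MED9), and 2 of 3 head genes were lower (MED17 and MED6), where 34.1% of all genes in the list were higher and 23.3% lower. MED19, MED27, MED28, MED29 and MED30, whose place differs between structural accounts, had 0 of 4 called either way for m1A. With 1 to 8 genes a module, these counts describe the genes and were not tested between modules.

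Psi peaks were thin. The 31 member peaks had a median pileup of 3 tags (2 to 8) and a median fold over the local background of 3.89, against 4.47 over all Psi peaks in protein-coding genes. The highest fold was that of MED23, a tail subunit that receives growth factor signals through ELK1, at 8.15 with a pileup of 8 tags and a summit at chr6:131598688. MED4, a middle subunit, had 7.30 with 7 tags and a summit 61 bases from its start. MED13 had 4 Psi peaks, the highest at 7.27 with 7 tags. MED14 and MED13L had 6 each, MED12L, CDK19 and MED28 had 2 each, and MED1, MED10, MED17, MED21, MED26, MED30 and MED6 had 1 each.

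Of the 31 Psi peaks 6 (19.4%) overlapped an antibody peak of the same gene, against 36.6% over protein-coding genes. These lay in CDK19, MED13, MED23, MED28, MED4 and MED6, and those of CDK19 and MED4 overlapped peaks of m1A, m5C and m7G together. The Psi list has no strand, and 4 of the 31 summits also lay in the span of another gene: AMD1 for CDK19, RNA5SP145 for MED12L, LOC105372295 for MED26 and FAM184B for MED28. Between the m1A and m5C lists, 30.8% of the members' m1A peaks overlapped an m5C peak (38.1% over all genes) and 38.2% of their m5C peaks an m1A peak (52.4%). Between the m1A and m7G lists, these shares were 28.2% of the m1A peaks (34.6%) and 48.8% of the m7G peaks (65.3%).

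The machinery that Mediator works with gave a further set of 43 genes: RNA polymerase II subunits, general transcription factors and pause release factors. Of these, 35 were listed for m1A (81.4%), 29 for m5C (67.4%), 36 for m7G (83.7%), 18 for ac4C (41.9%) and 21 for Psi (48.8%). These shares were above those of the 33 Mediator genes in each list but that of m5C. For m7G 17 of 36 were called higher (40.5% of all genes) and 0 lower (0.013%), with a median of 1.79 against 3.23 in the Mediator genes. GTF2H5, the smallest TFIIH subunit, was highest at 15.8 (6.48 to 49.9), from 80 IP and 5 input reads, and GTF2F2, of TFIIF, lowest at 0.714 (0.696 to 0.732).

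For m5C 6 of 29 were higher (34.1% of all genes) and 8 lower (23.3%), with a median of 0.709 against 1.53 in the Mediator genes. MNAT1, which assembles the kinase part of TFIIH, was highest at 12.6 (12.3 to 13.0), and POLR2F, a subunit shared by the nuclear polymerases, lowest at 0.212 (0.202 to 0.222). For m1A 13 of 35 were higher (40.3%) and 4 lower (7.87%), from POLR2L, another shared polymerase subunit, at 20.01 (18.8 to 21.3), down to CCNH, the cyclin of TFIIH, at 0.326 (0.305 to 0.349). For ac4C 18 of 18 were higher (99.7%), with POLR2B, the polymerase's next largest subunit after its catalytic one and the highest here, at 12.8 (10.999 to 14.9).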

How the data were processed

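The authors deposited 1 peak list each for m1A, m5C, m7G and ac4C, with pooled RPM values of IP and input per peak, a log2 enrichment that is the authors' own and not the log2 of the RPM quotient, and a p-value. HISAT2, StringTie, DESeq and hg38 are named, without roles, in the submitters' processing notes. The sources used here do not name the caller of these lists. MACS 2.2.6 called the Psi peaks on pooled libraries with no control at a q-value limit of 0.05, per the file headers, which also give the pileup signal, the fold over local background and the −log10 of p and q. Of 10921552 Psi tags, 20.3% were kept, at 1 per position.

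Each deposited RPM value came to a whole number of reads, within 0.1 read, which gave the pooled reads, the ratios and their 95% exact (Clopper-Pearson) intervals (scipy 1.17.1, pandas 2.3.3). The interval code was checked on simulated counts drawn independently for each gene. Those counts held no variation between libraries, so the check does not cover such variation. Ratios sum over all listed peaks of a gene. Peaks naming more than 1 gene were not used, and an overlap was at least 1 base. Because the lists are pooled, no count model was run. Gene spans, windows and sequences are those of RefSeq GRCh38.p14. Positions from the files were written 1-based.

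The members and gene lists were chosen with earlier results of these data known. The text names all 33 genes and gives values for those in all 5 lists, the 3 highest and 2 lowest ratios of each antibody list, the 3 highest Psi folds, the paralog pairs, and MED1, MED14, MED15, MED12, CDK8 and CCNC. Of the machinery it gives the highest and lowest ratio of each antibody list, except a value that is not reported here. The distance of a peak's first base from the gene start, the motif, the comparison of inputs, and values of other members shown beside them were chosen after the data were seen.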

Additional observations from a re-analysis of the deposited data

How the results depend on the processing

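No paired analysis was possible because the deposited lists hold pooled values, and for the same reason leaving out each replicate could not be run. With only peaks of above-median significance, 12 of 24 members stayed listed for m5C, 5 of 11 for ac4C and 9 of 15 for Psi. For m1A 19 of 21 stayed, and for m7G 14 of 20. No share of all genes under that limit stands beside these counts. Whether the members' higher shares hold there therefore cannot be told. Divided by the median ratio of its list, the members' median became 1.11 for m1A, 2.02 for m7G and 1.13 for ac4C, and MED1 (0.442), MED13 (0.925), MED13L (0.531), MED24 (0.686) and MED29 (0.286) fell below 1 for ac4C, as did MED19 for m1A (0.838) and MED1 (0.667), MED28 (0.794) and MED9 (0.819) for m7G. The count called lower for m1A was 4 at a fold of 1.5 (18% of all genes) and 0 at a fold of 3 (0.884%). By an exact binomial test with Benjamini-Hochberg adjustment and no fold it was 9 (31.5%). By the peak of highest authors' enrichment alone it was 1 (3.17%). Under that setting 8 of 76 gene ratios crossed 1: m1A of MED13L (1.71), MED1 (2.19), MED28 (1.76) and MED29 (2.84), m5C of CDK19 (0.772) and MED28 (0.940), and m7G of MED13 (2.08) and MED6 (3.43). By the binomial test, which like the intervals covers counting error only, 16 members were higher for m5C (49.9% of all genes) and 2 lower for m7G (11.9%). At a fold of 3, 4 were lower for m5C (11.5%), and by the single peak 19 were higher for m7G (66.1%). Within 200 bases of the gene end lay 0% of the members' m5C, m7G and Psi peaks, against 4.28%, 0.749% and 2.74% over all protein-coding genes. At 500 bases the end shares were 9.09% for m5C (9.86%), 2.33% for m7G (2.72%) and 9.68% for Psi (6.68%). Within 1000 bases of the end lay 20% of the members' m5C peaks (16.8%). Of their Psi peaks, 6.45% lay within 500 bases of the start (13.9%) and 22.6% within 1000 bases (16.3%). Within 10 bases of the start 3 members had an m1A peak (13.7% of all listed protein-coding genes) and 1 an m5C peak (8.63%). Within 200 bases 8 had an m1A peak (35.6%). With the inputs of m1A and m7G exchanged at shared places, the first MED15 ratio was 1.56 for m1A and 56.1 for m7G. The cause of these changes was not tested. The other counts of members listed or called stayed within 1.5 times their value under the alternatives run. Depth limits the ac4C values, with as few as 36 IP reads a gene.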

Other observations

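A pair of RNAs named after Mediator genes but outside the complex were also listed. MED15P9, a pseudogene of MED15, had an m1A peak at chr2:130129723-130135168 that held 222 reads in the IP and 17 in the input, for a ratio of 17.0 (10.4 to 29.7). Its m5C peak held 11 and 4 reads, for a ratio of 5.60 (1.66 to 24.1). Reads of near-identical copies may be split between MED15 and MED15P9, and the sources used here do not say how the authors treated them. MED4-AS1, which overlaps MED4 on the opposite strand, had an m1A ratio of 1.16 (0.905 to 1.49) and m5C peaks at 1.38 (0.964 to 1.97) and 1.17 (0.798 to 1.69).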
